A study of Mus musculus with 31 samples.

Results

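The genes of the surface ectoderm and the corneal epithelium were examined in whole eyes of E13.5 mouse embryos with and without Ftx. The list held 10 genes, Krt5, Krt14, Krt15, Krt17, Trp63, Krt8, Krt18, Krt19, Epcam and Cdh1, of the 34832 gene names on the array. Every probe carrying 1 of these names was taken, control spots apart, which gave 15 probes. Of these, 12 probes from 9 genes were bright enough to be tested, and Krt17 was the gene without a tested probe.

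Ftx is a noncoding RNA gene on the X chromosome next to Xist, and its targeted deletion also abolished the expression of miRNA374 and miRNA421. Each sample was 1 eye of a C57BL/6N embryo at E13.5, outwardly normal and dissected free of its pigmented epithelium. The groups were 3 WT female eyes, 11 Ftx-/- female eyes, 3 WT male eyes and 3 Ftx-/Y male eyes, and one-colour Agilent arrays measured their RNA. The arrays analysed here were 2 for each Ftx-/- female eye, whose values were averaged, and 1 for each other eye, although the study hybridised in duplicate. The labels number the WT female eyes 1, 2 and 4, and a further WT female eye of the study was not analysed here. They do not say whether eyes came from separate embryos, so the p-values measure the spread between these eyes, which may in part be technical.

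The surface ectoderm is the sheet of embryonic epithelium that covers the eye and gives rise to the lens, the corneal and conjunctival epithelium and the skin of the lids. Its basal cells express the transcription factor p63, encoded by Trp63, and the paired keratins Krt5 and Krt14, whereas Krt8, Krt18 and Krt19 form the intermediate filaments of simple and embryonic epithelia. Cdh1 (E-cadherin) joins epithelial cells to each other at adherens junctions, in the lens as well as in the surface epithelium, and Epcam is an adhesion molecule of epithelial cell surfaces. In RNA from a whole eye, fewer cells of a type and less RNA per cell cannot be told apart.

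Median probe intensity ranged from 34.2 to 75 between arrays, and 48.2 to 70.4% of probe spots were well above background. The number of arrays limits the precision, and the median standard error over all tested probes was 0.18 log2 units in the female and 0.23 in the male comparison of knockout with WT. The brighter of 2 Ftx probes, listed under the older name B230206F22Rik, gave 50 to 134 in WT female and 101 to 110 in WT male eyes, against 8.25 to 37.4 in Ftx-/- eyes, where 9 of 22 arrays were well above background, and 13.2 to 18.6 in Ftx-/Y eyes. On the dimmer probe the WT male eyes, at 13.8 to 22.1, and the Ftx-/Y eyes, at 6.39 to 18.6, overlapped and were not well above background. Xist was well above background in the female eyes only. The arrays lay on 4 slides, each scanned at its own time, slide 1 on 1 day and slides 2, 3 and 4 on another. Slide 1 held all WT eyes and Ftx-/Y eye 1, slide 2 held Ftx-/Y eyes 2 and 3 with Ftx-/- eyes 1 to 3, slide 3 held Ftx-/- eyes 4 to 7 and slide 4 held Ftx-/- eyes 8 to 11. No slide held both WT and Ftx-/- female eyes, so slide and genotype cannot be told apart in the female comparison.

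Between Ftx-/- and WT female eyes, Cdh1 was lower in every knockout eye and Krt8, by the brighter of its 2 probes alone, was higher in every knockout eye, and the other 7 tested genes did not pass the test. These 2 of 9 genes compare with 26.7% of all 35054 tested probes called in the same comparison, 13.8% higher and 12.9% lower (limma, adjusted p under 0.05). The share of all probes whose groups did not overlap was not counted in any comparison. The median log2 difference over the 9 genes was 0.64, beside -0.01 over all tested probes. With 75th percentile normalization these medians were 0.07 and -0.15, and Krt19, which was not called, turned from 0.64 to -0.07. Without Ftx-/- eyes 1, 4 and 5 the median of the 9 genes was 0.20. Between Ftx-/Y and WT male eyes none of the 9 genes passed, with 0.00285% of all probes called by limma, and an unadjusted p under 0.05 was reached by none of the 9 and by 13.6% of all probes. Between females and males none of the 9 passed within WT or within knockout eyes either, where 0.385% and 1.24% of all probes were called. An unadjusted p under 0.05 was reached by 2 and 3 of the 9 genes and by 12.5% and 15.2% of all probes (limma). The plot of values by eye shows the 2 genes that passed beside those whose knockout eyes spread widely around the WT values.

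**Figure D1:**
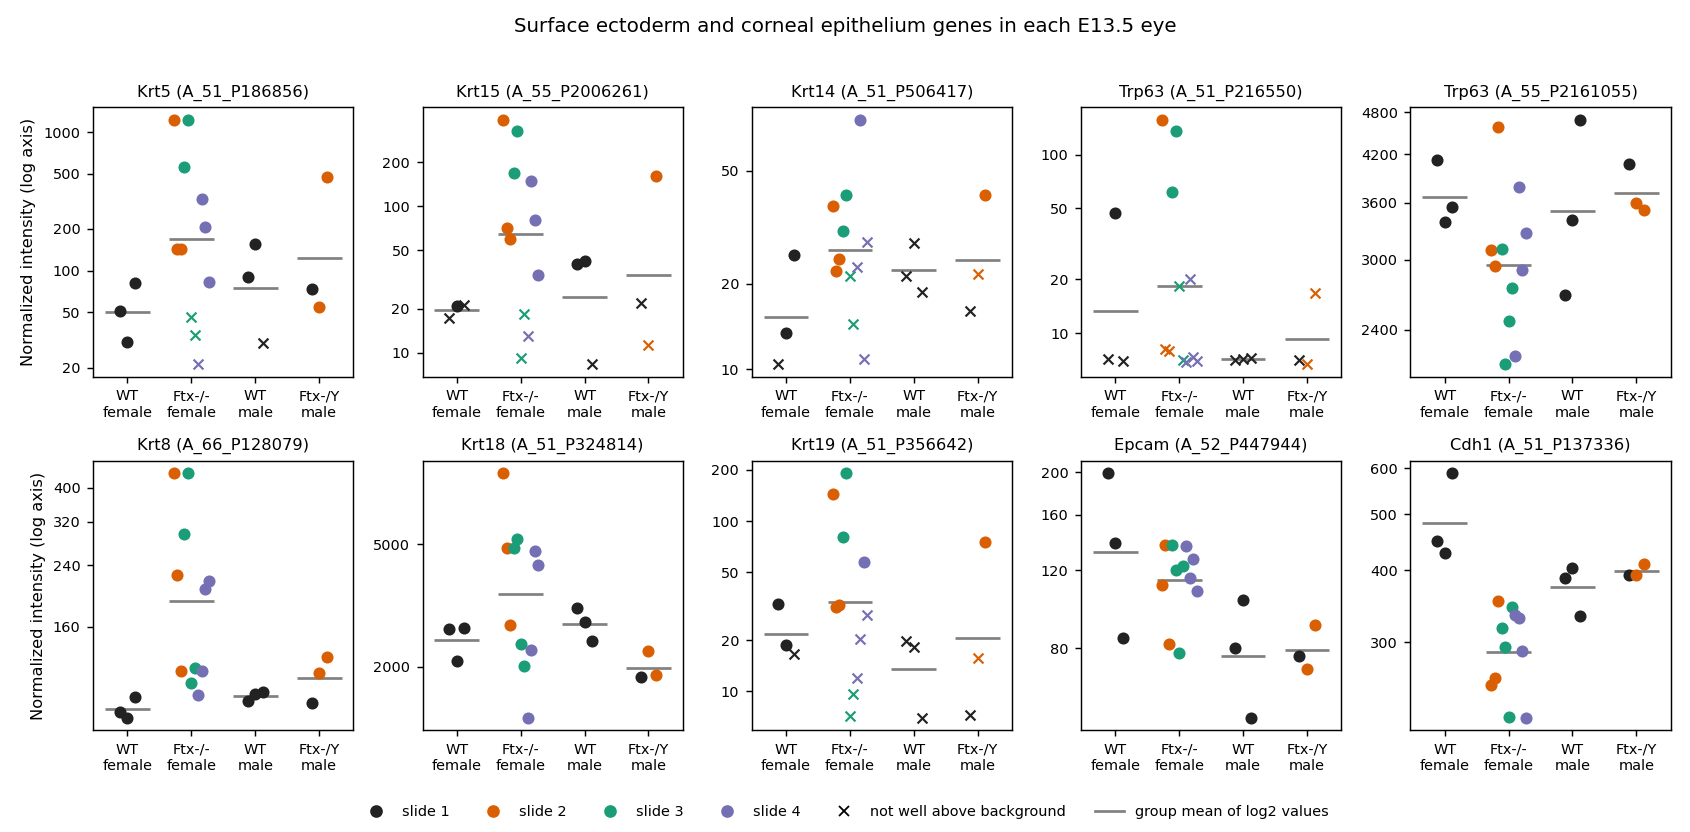
Normalized intensity on log axes of 10 member probes in each eye, coloured by slide, with crosses for values not well above background and bars for group means of log2 values. Cdh1 lay at 222 to 354 in the 11 Ftx-/- female eyes, below the 429 to 589 of the WT female eyes, and Krt5 ranged from 21.1 to 1230 among the Ftx-/- female eyes.

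Cdh1 encodes the adherens junction cadherin of epithelia. Its probe, printed in 10 spots on each array, lies at chr8:109193812-109193871 of mm9 and starts 4078 bases into its transcript. The normalized intensities were 450, 429 and 589 in the WT female eyes. In the Ftx-/- female eyes they ran from 222 to 354 with a median of 295. All 11 knockout eyes lay below all 3 WT eyes. The log2 difference was -0.74 ± 0.14 (SE, 95% interval -1.04 to -0.44), 0.598-fold, with an adjusted p of 0.00108 (limma).

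In males, Cdh1 measured 388, 404 and 333 in the WT eyes and 392, 393 and 410 in the Ftx-/Y eyes. These groups overlapped, and the log2 difference was 0.09 ± 0.18 (SE; limma, adjusted p = 0.857). The female change minus the male change was -0.83 ± 0.23 (SE, 95% interval -1.31 to -0.35). Its unadjusted p was 0.0015 and its adjusted p 0.236 in limma, so the difference between the sexes did not pass the correction. No probe on the array passed it in that comparison, 0% called, although 3920 of 35054 had an unadjusted p under 0.05. Among WT eyes, Cdh1 was higher in all 3 females than in all 3 males, by 0.37 ± 0.18 log2 units (SE; limma, adjusted p = 0.392, with 0.385% of probes called). The share of all probes so separated was not counted.

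The 2 knockout sexes could be compared on 1 slide. On slide 2, the 3 Ftx-/- eyes had a mean Cdh1 intensity of 289 and the 2 Ftx-/Y eyes of 401, a log2 difference of -0.49 ± 0.17 (SE; limma, adjusted p = 0.57). Over all slides the difference between Ftx-/- and Ftx-/Y eyes was -0.46 ± 0.14 with an adjusted p of 0.13 (limma), against 1.24% of probes called. The groups did not overlap, and the share of all probes so separated was not counted. The Ftx-/- eyes averaged 289, 295 and 294 on slides 2, 3 and 4, and the Ftx-/Y eye on slide 1 measured 392. With slide as a block the female difference was -0.8 with an adjusted p of 0.363 (limma).

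Lens markers fell in the same female comparison. Of 15 tested lens markers, 12 were called lower and none higher in Ftx-/- than in WT female eyes, beside 12.9% and 13.8% of all probes. The median log2 difference of these markers was -0.85. Their summed intensity was 1690000 to 1820000 in WT female and 1260000 to 1680000 in Ftx-/- female eyes, and 1700000 to 1750000 in WT male and 1630000 to 1790000 in Ftx-/Y male eyes. Across the 11 Ftx-/- eyes the correlation of Cdh1 with the summed lens markers was 0.41, and the single markers ranged from -0.13 for Cryaa to 0.66 for Bfsp1, a lens filament protein. The part of lens tissue in the Cdh1 difference was not tested.

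Among the simple epithelial keratins, Krt8 is the type II partner of the type I keratin Krt18. The brighter Krt8 probe, at chr15:101827138-101827197 of mm9, gave 91.4, 87.9 and 101 in the WT female eyes. The 11 Ftx-/- eyes ran from 102 to 441 with a median of 206. Knockout eyes 1 and 5 were highest, at 441 each, while eye 8 lay at the WT level, and the groups were separated by that narrow margin. The log2 difference was 1.03 ± 0.38 (SE, 95% interval 0.23 to 1.82), 2.04-fold, with an adjusted p of 0.0493 (limma). A p this close to the threshold was lost in 27 of 38 alternative settings. The second Krt8 probe, at chr15:101828827-101828886, differed by 0.26 ± 0.37 (SE; limma, adjusted p = 0.629), with 6 of 11 knockout eyes above the WT mean and overlapping groups. The male groups differed by 0.18 ± 0.47 on the first probe (SE; limma, adjusted p = 0.902), at 97.3 to 131 in Ftx-/Y and 98.2 to 104 in WT eyes.

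Krt18 lies beside Krt8 on chromosome 15, and its probe at chr15:101862341-101862400 gave 2650, 2080 and 2670 in the WT female eyes. The Ftx-/- eyes ran from 1360 to 8540 with a median of 4270. Eye 1 was highest, and 4 knockout eyes lay below the WT mean, so the groups overlapped. The log2 difference was 0.50 ± 0.37 (SE; limma, adjusted p = 0.328). In males the WT eyes measured 3110, 2790 and 2420 and the Ftx-/Y eyes 1850, 2240 and 1870. All 3 male knockout eyes lay below all 3 WT eyes, a separation whose share over all probes was not counted. The difference of -0.48 ± 0.46 log2 units did not pass (limma, adjusted p = 0.676).

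Krt19, a small type I keratin without the usual tail domain, was near background in many eyes. It gave 32.7, 18.6 and 16.5 in WT female eyes and 7.14 to 192, median 31.3, in Ftx-/- eyes, where 6 of 11 were well above background. The highest values again belonged to knockout eyes 5 and 1, at 192 and 145. The log2 difference was 0.64 in females (limma, adjusted p = 0.596). In males no WT eye and, of the Ftx-/Y eyes, eye 3 alone, at 75.1, was well above background, so no fold is given.

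Of the stratified epithelial keratins, Krt5 is the type II keratin of basal cells. Its brighter probe, at chr15:101537514-101537573 of mm9, gave 51, 30.8 and 81.9 in WT female eyes. In the Ftx-/- eyes the values were 1220, 144, 144, 563, 1230, 46.7, 34.6, 21.1, 329, 208 and 83.1 for eyes 1 to 11. The highest knockout eye was 58.3 times the lowest, and eyes 6, 7 and 8 were not well above background. The log2 difference of 1.75 had an SE of 1.03 and a 95% interval from -0.43 to 3.93, and did not pass (limma, adjusted p = 0.212). Male WT eyes gave 90.6, 157 and 29.9 and Ftx-/Y eyes 73.9, 54.6 and 473, a log2 difference of 0.72 ± 1.29 (SE; limma, adjusted p = 0.842). The dimmer Krt5 probe, at chr15:101542056-101542115, differed by -0.07 ± 0.43 in females (SE; limma, adjusted p = 0.92) and was not well above background in any male eye.

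Krt15, a type I keratin of basal cells, gave 17.2, 20.8 and 21.1 in WT female eyes and 9.12 to 391, median 70.7, in Ftx-/- eyes. The same eyes stood out, with 391 in eye 1 and 326 in eye 5, while eyes 6, 7 and 8 were not well above background. The log2 difference was 1.72 ± 0.99 (SE; limma, adjusted p = 0.203). In males it was 0.50 ± 1.24 (SE; limma, adjusted p = 0.892), with Ftx-/Y eye 3 highest at 160. Krt14, the type I partner of Krt5, stayed dim, at 10.4 to 25.3 in WT female and 10.9 to 75.9, median 24.5, in Ftx-/- eyes. Its highest value was in eye 9 rather than in eyes 1, 4 or 5, and its log2 difference was 0.79 ± 0.43 (SE; limma, adjusted p = 0.179). No WT male eye was well above background for Krt14, and of the Ftx-/Y eyes eye 3 was, at 41.3. Krt17, a keratin of periderm and skin appendages, was not well above background in any of the 20 eyes, at 6.72 to 18.9.

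Trp63 was carried by 4 probes, 2 of which were tested and gave unlike patterns. The brightest, at chr16:25871159-25871218 of mm9, is shown because a run of GCA repeats, in capitals, fills 21 of its 60 bases, at bases 20 to 40.
Trp63 A_55_P2161055: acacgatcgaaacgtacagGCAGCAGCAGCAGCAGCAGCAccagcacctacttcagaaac
Only 3 of the 55681 probes held a run of this kind at least as long. It gave 3380 to 4120 in WT female and 2150 to 4580, median 2940, in Ftx-/- eyes, a log2 difference of -0.31 ± 0.18 (SE; limma, adjusted p = 0.2). The male eyes overlapped too, at 2680 to 4690 in WT and 3520 to 4070 in Ftx-/Y eyes. The second tested probe, at chr16:25892012-25892071, was well above background in 1 WT female eye, at 47, and in 3 of 11 Ftx-/- eyes, at 157, 61.3 and 136 in eyes 1, 4 and 5. Its log2 difference was 0.46 (limma, adjusted p = 0.736). Across the 11 Ftx-/- eyes the correlation between the 2 probes was -0.2, and the second followed Krt5 at 0.83. The untested probes were each well above background in 1 eye of 20. Which of the 2 tested probes follows Trp63 was not tested.

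Epcam gave 199, 138 and 84.5 in WT female eyes and 78 to 137, median 120, in Ftx-/- eyes. The groups overlapped, with a log2 difference of -0.22 ± 0.23 (SE; limma, adjusted p = 0.493), and in males it was 0.04 ± 0.28 (SE; limma, adjusted p = 0.966), with Ftx-/Y eyes at 72 to 90.3. The WT male eyes gave 80.1, 103 and 55.7, so WT female eye 4, at 84.5, lay below the highest of them. The mean of the WT females was 0.78 ± 0.28 log2 units above that of the WT males, which did not pass (limma, adjusted p = 0.272) until WT female eye 4 was left out (adjusted p = 0.0375). The 2 arrays of an Ftx-/- eye correlated at only 0.10 for this probe, with an SD of 0.28 log2 units between eyes and of 0.35 within an eye.

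**Figure D2:**
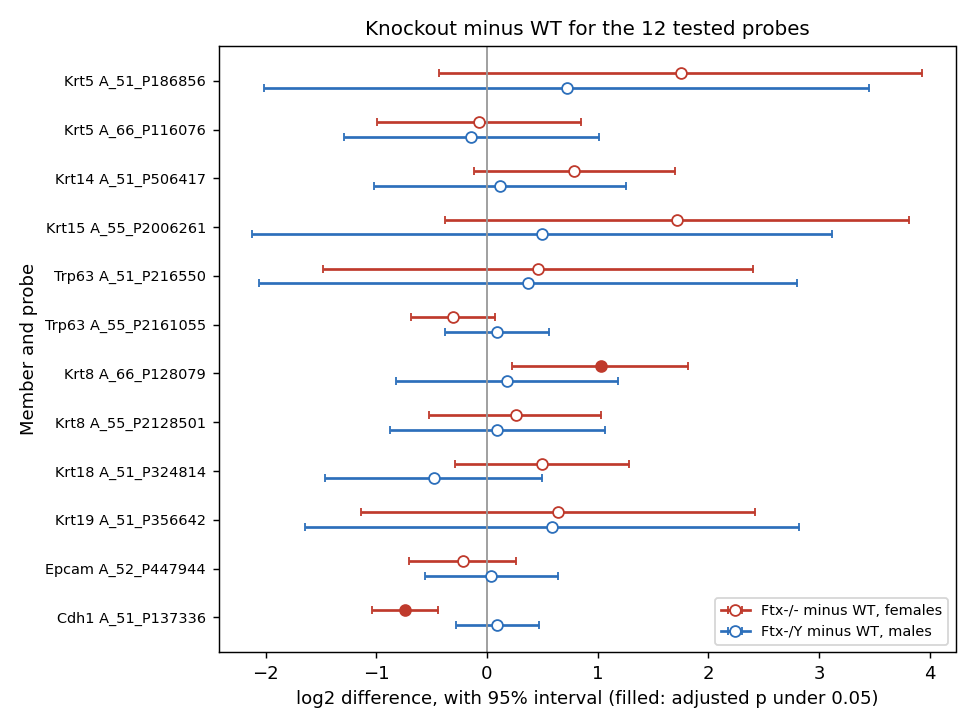
Log2 difference between knockout and WT eyes with its 95% interval for the 12 tested probes, females in red and males in blue, with filled points for an adjusted p under 0.05 (limma). Krt8 at 1.03 and Cdh1 at -0.74 in females were the filled points, and the widest intervals belonged to the dim and variable keratins such as Krt5.

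Among the 11 Ftx-/- female eyes, 5 of the 6 tested keratins varied together from eye to eye. These 5 were grouped after their values were seen. Over Krt5, Krt15, Krt19, Krt8 and Krt18, the 10 pairs of probes had Pearson correlations from 0.76 to 0.97 and Spearman correlations from 0.76 to 0.96 over 11 eyes. Eyes 1, 4 and 5 held the top 3 places for all 5 probes, although for Krt18 eyes 2 and 4 were level at 4850 after rounding. With the mean of each slide taken out the correlations were 0.73 to 0.98, and when array 1 of each eye was set against array 2 for the other gene they were 0.75 to 0.96. Without the 2 eyes farthest from the median they were 0.64 to 0.95. The second probes of Krt5 and Krt8 followed these 5 at 0.61 to 0.90 and 0.73 to 0.92, and at 0.58 to 0.86 and 0.39 to 0.80 without the 2 farthest eyes.

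For the 5 covarying keratin probes the differences between eyes exceeded those between the 2 arrays of an eye. For Krt5 the SD between eyes was 1.98 log2 units and that within an eye 0.2, and for Krt18 they were 0.78 and 0.07. Krt14, the remaining tested keratin, correlated at 0.53 with Krt5, 0.54 with Krt15, 0.29 with Krt19, 0.23 with Krt8 and 0.12 with Krt18. Without the 2 farthest eyes, which were eyes 9 and 10 for every pair but that with Krt5, these ranged from 0.40 to 0.89, so the lower values of Krt14 rested on those eyes. The correlations of Cdh1 with the 5 keratin probes lay between -0.45 and 0.09, those of Epcam between 0.14 and 0.32, and those of the repeat-bearing Trp63 probe between -0.16 and 0.23. Without the 2 farthest eyes the ranges were -0.30 to 0.12, -0.01 to 0.57 and 0.10 to 0.61. For Epcam the SD within an eye exceeded that between eyes, so its correlations say little either way. These are descriptions across 11 eyes that share arrays, slides and dissection.

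**Figure D3:**
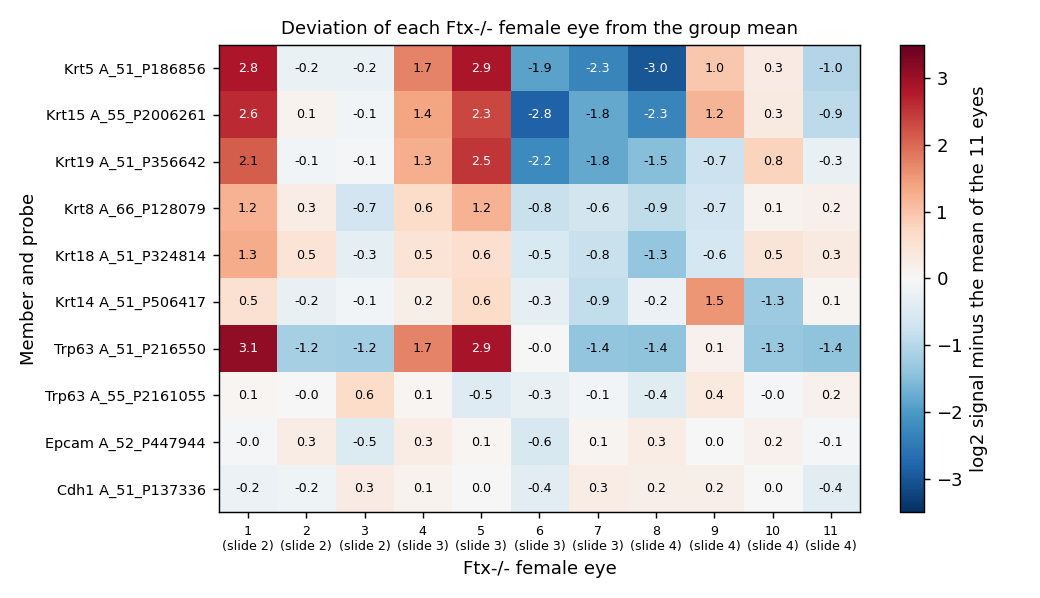
Deviation of each of the 11 Ftx-/- female eyes, in columns with their slide, from the mean of the 11 eyes on the log2 scale, for 10 member probes in rows. Eyes 1, 4, 5 and 10 were above the mean in all 5 covarying keratin probes, whereas Cdh1 and Epcam varied with SDs of 0.24 and 0.28 against 1.98 for Krt5.

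When eyes 1, 4 and 5 were left out, a choice made after their values were seen, Cdh1 kept its difference at -0.74 (limma, adjusted p = 0.00337). For Krt8 the difference became 0.64 (limma, adjusted p = 0.0564) and no longer passed. For Krt5 it became 0.82 (limma, adjusted p = 0.464).

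Krt15 and Krt19 had no matched start site, and the start-site sequences of the other 3 covarying keratins are shown. They are the 250 bases before each start, from a table of RefSeq promoters on GRCm38.p6 in which 5 of the 10 members were matched, and the capitals mark the E-box of the Snail and Zeb type, CACCTG on either strand, and the AP-2 motif GCCNNNGGC.
Krt5, chr15:101712906-101713155, minus strand: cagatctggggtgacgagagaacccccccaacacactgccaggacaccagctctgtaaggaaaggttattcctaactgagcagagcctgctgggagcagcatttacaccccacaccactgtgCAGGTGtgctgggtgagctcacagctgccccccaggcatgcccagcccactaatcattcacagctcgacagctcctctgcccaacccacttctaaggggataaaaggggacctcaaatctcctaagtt
Krt8, chr15:102004343-102004592, minus strand: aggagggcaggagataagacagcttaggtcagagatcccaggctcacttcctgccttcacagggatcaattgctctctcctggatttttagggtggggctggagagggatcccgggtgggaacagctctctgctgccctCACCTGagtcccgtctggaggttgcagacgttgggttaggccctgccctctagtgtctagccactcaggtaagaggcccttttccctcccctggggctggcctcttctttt
Krt18, chr15:102027966-102028215, plus strand: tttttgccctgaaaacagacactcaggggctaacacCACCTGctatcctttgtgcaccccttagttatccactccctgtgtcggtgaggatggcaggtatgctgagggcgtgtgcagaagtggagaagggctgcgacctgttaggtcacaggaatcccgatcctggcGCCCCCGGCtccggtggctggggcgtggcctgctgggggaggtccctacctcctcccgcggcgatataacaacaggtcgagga
CACCTG began 128 bases before the start of Krt5, 111 before that of Krt8 and 214 before that of Krt18. The AP-2 motif was found in Krt18 alone of these 3, at 83 bases before the start. Of 32851 promoters of the same length, 17.2% held CACCTG and 13.7% the AP-2 motif. The Epcam promoter held CACCTG as well, and the Krt14 promoter held neither motif. TATAAA, found in 12.4% of promoters, was in none of the 5, and GGGCGG, found in 32.7%, was in that of Epcam. A part of these motifs in the shared variation of the keratins was not tested.

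Markers of the pigment epithelium, the layer that the dissection was meant to remove, varied with the keratins, and most closely with Krt18 and Krt8. Across the 11 Ftx-/- eyes Krt18 and the summed intensity of 11 pigment epithelium markers had a Pearson correlation of 0.95 and a Spearman correlation of 0.93, and 0.93 without the 2 eyes farthest from the median. Of the 11 markers, 10 correlated above 0.8 with Krt18, led by Dct, an enzyme of melanin synthesis, at 0.98, and Otx2 was the exception at -0.21. Krt8 correlated with the sum at 0.84, and with 10 of the 11 markers above 0.8, Otx2 being at -0.43. The summed level was 23700 to 25200 in WT female, 21700 to 58200 in Ftx-/- female, 30300 to 34700 in WT male and 21900 to 26700 in Ftx-/Y eyes. Otx2 alone averaged 16500 in WT female and 15500 in Ftx-/- female eyes, a large part of these sums. In the female comparison 5 of the 11 markers rose and none fell, beside 13.8% and 12.9% of all probes. The median log2 difference of the markers was 1.03, and Gpnmb rose by 2.48.

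Periocular mesenchyme markers rose more broadly, with 10 of 14 higher and 1 lower, beside 13.8% and 12.9% of all probes. The median log2 difference of these markers was 2.01. Zeb1, a zinc finger transcription factor, was the marker that fell, by 0.32, while Snai2 was among those that rose, by 0.62. The summed level of the 14 markers was 7870 to 9560 in WT female and 9230 to 56500 in Ftx-/- female eyes, and 8850 to 18300 in WT male and 8760 to 14100 in Ftx-/Y eyes. Krt5 correlated with this sum at 0.66 over the 11 knockout eyes, and at 0.26 without the 2 farthest eyes. With the summed pigment epithelium markers it correlated at 0.76, and at 0.68 without the 2 farthest eyes. Muscle markers, of which 1 of 6 rose beside 13.8% of all probes, followed Krt5 at 0.74. The part of pigment epithelium, mesenchyme and muscle carried along with the eye in the keratin values was not tested.

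**Figure D4:**
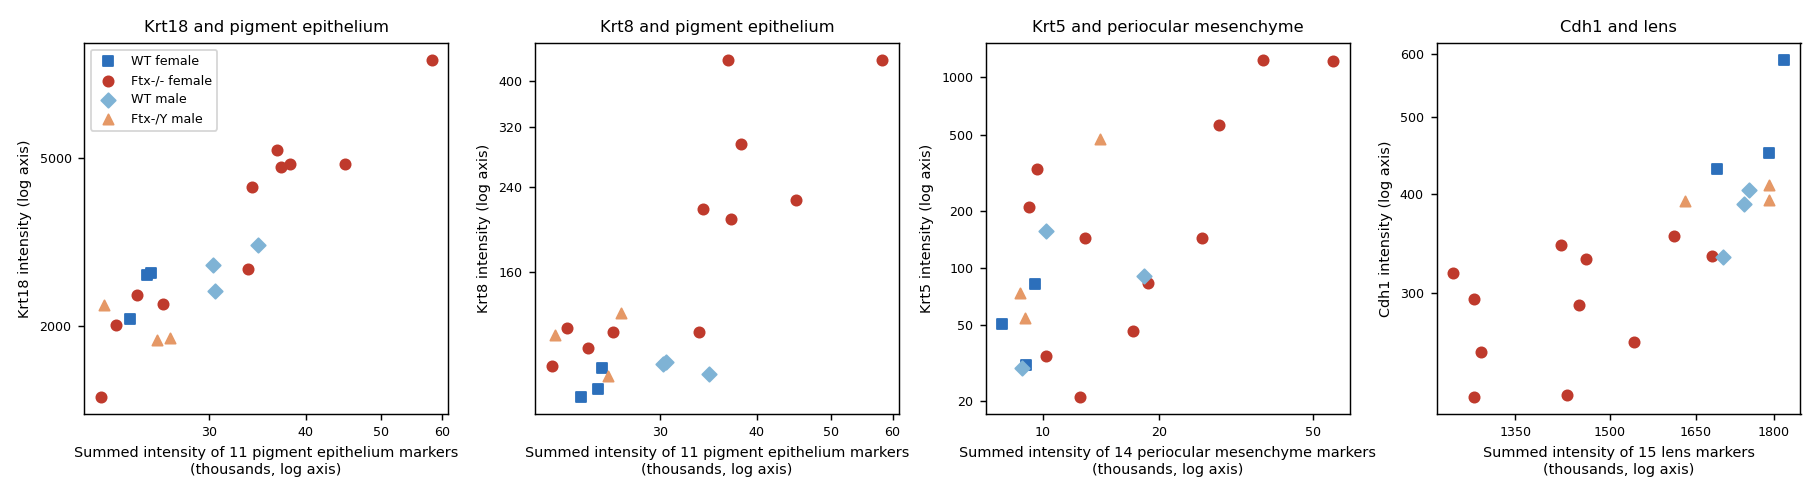
Normalized intensity of a member against the summed intensity of a marker list in each of the 20 eyes, all on log axes. Krt18 was higher in Ftx-/- female eyes with more pigment epithelium signal (correlation 0.95 over 11 eyes), and the Cdh1 values of the WT female eyes, 429 to 589, lay above those of the male eyes, 333 to 410, at like summed lens signal.

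Of 15 neural retina markers 4 rose and 2 fell, of 7 erythroid markers 2 rose, of 8 macrophage markers 2 rose and none of 8 endothelial markers passed (limma). Over all probes 13.8% rose and 12.9% fell, so the shares of erythroid and macrophage markers rest on 2 genes each. Their median log2 differences were 0.08, 0.02, -0.02 and 0.27. In the male comparison no marker of any list passed, but all 7 erythroid markers were higher in all 3 Ftx-/Y eyes than the WT mean, with a median log2 difference of 0.91 and 7 of 7 at an unadjusted p under 0.05 (limma). Their summed level was 304000 to 631000 in Ftx-/Y and 206000 to 261000 in WT male eyes, and the part of blood in the male values of the epithelial genes was not tested.

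The other genes of epithelia were followed in 5 lists. Of 70 tested genes, 12 passed in the female comparison, 5 higher and 7 lower, which is 17.1% beside the 26.7% of all probes. The median log2 differences of the lists were 0.26 for regulators, -0.21 for other keratins, 0.35 for desmosome and hemidesmosome genes, 0.18 for tight junction and adhesion genes and 0.22 for genes of cornea, conjunctiva and periderm. In the male comparison none passed by limma, and 8 of 70 had an unadjusted p under 0.05, beside 13.6% of all probes. Among regulators of the surface ectoderm 2 of 15 rose. Pitx1, a homeobox factor, rose by 2.64 (limma, adjusted p = 0.036) and Ovol2, a zinc finger factor that keeps cells epithelial, by 0.90 (limma, adjusted p = 0.00942). Pitx1 was dim and variable, at a mean of 19 (SD 18) in WT female and 159 (SD 173) in Ftx-/- female eyes. Among the other keratins Krt10, of suprabasal skin, rose by 0.31 and Krt80 fell by 1.41, with 10 tested.

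In both junction lists the shares called were below the 26.7% of all probes. That share came from 9371 calls, which fell to 4127 without WT female eye 1, where the list shares were not recounted. Of 18 desmosome and hemidesmosome genes, Col17a1, a hemidesmosome collagen, rose by 1.92, while the laminin receptor subunit Itga6 fell by 0.43 and the linker Plec by 0.72. Col17a1 was dim, with a mean of 19.7 in WT female and 74 in Ftx-/- female eyes. Of 17 tight junction and adhesion genes, 3 fell and none rose. Tjp3, a tight junction scaffold, fell by 0.40, and the protease inhibitors Spint2 and Spint1 fell by 0.81 and 1.14. Among 10 tested genes of cornea, conjunctiva and periderm, the mucin Muc1 rose by 0.99 and Wnt7a, a Wnt ligand, fell by 1.03. Muc1 was near background, with a mean of 9.28 in WT female and 18.5 in Ftx-/- female eyes, so the size of its rise is uncertain. The male differences of Spint1 and Muc1 were larger in size without passing, at -1.35 and 1.38 (limma, adjusted p = 0.242 and 0.179), and that of Krt80 was -1.23 (limma, adjusted p = 0.348). Spint1 averaged only 17.1 in Ftx-/Y and Muc1 11.5 in WT male eyes, so the sizes of their male differences are uncertain.

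The genes whose patterns over the 20 eyes were most like those of the members, with group means taken out, were described by their Pearson correlation. For the mean of the stratified members Krt5, Krt14, Krt15 and Trp63, the last entered by its repeat-bearing probe, these were Gjb2 at 0.84, Rnf25 at 0.82, Lef1 at 0.79, Xlr4b at 0.78 and Tmco6 at 0.78. With the second tested Trp63 probe in its place, a choice made after the values were seen and a probe not well above background in 16 of 20 eyes, they were Gjb2 at 0.93, Wnt10a at 0.90, and Wnt6, Anxa8 and Wnt4 at 0.89. For the simple epithelial keratins with Epcam and Cdh1 they were Ripk4 and Npr3 at 0.88, Tpm1 at 0.87, and Wnt10a and Calml3 at 0.86. Correlations above 0.8 with these 3 means were reached by 0.0114%, 0.12% and 0.0885% of tested probes, members included. Cdh1 itself correlated at 0.15 with the mean it belonged to, the lowest of its members, and Krt19 at 0.93 the highest.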

How the data were processed

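RNA of 20 single eyes was measured on 31 one-colour Agilent arrays. Per the file headers, the intensity values were extracted with Agilent Feature Extraction 11.0.1.1, and the deposited intensity used here is the processed signal, background-subtracted per spot. The authors normalized their arrays with the qspline function of an R package. The value table of the series equals the unnormalized processed signal. Here the 3671 control spots and the spots flagged as non-uniform (120) or as population outliers (5639) were left out, spots of a probe were averaged, and qspline normalization (100 samples, 5 iterations, smallest offset 5) was written out in R 4.3.3. For Ftx-/- eyes, log2 values of both arrays were averaged. Probes well above background in at least 3 of 20 eyes were tested, 35054 of 55681, of which 36 lacked a value in an eye.

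All 20 eyes entered 1 fit of log2 intensities with limma 3.58.1 (lmFit and eBayes with trend), with contrasts for knockout against WT in each sex, their difference, and sex within each genotype. P-values were two-sided and adjusted by Benjamini-Hochberg over all tested probes, with calls under 0.05. The probe with the highest mean stood for a gene. All member probes were named. From the epithelial lists up to 3 called rises and 3 called falls were named, from the marker lists up to 2, and the 5 genes most like each set of members. Some genes that this rule names are not reported here. The members and lists were chosen with earlier results of these data known. The scripts were checked on simulated data. Alternatives covered normalization, background, filters, arrays, slide and replicate blocks, the methods' own test and leaving out each eye. Scan times coincided with slides, so no separate scan block was run, and none was run for scan day. Probe coordinates are those of the files (mm9), and promoters those of RefSeq GRCm38.p6.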

Additional observations from a re-analysis of the deposited data

Results flagged for a closer look

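For Cdh1, all 11 Ftx-/- eyes lay below the mean of the WT female eyes and all 3 Ftx-/Y eyes lay above the mean of the WT male eyes. The male groups overlapped, with a difference of 0.09 ± 0.18 log2 units (SE; limma, adjusted p = 0.857) that was -0.06 with the series table values, so no male change was shown. The female change minus the male change was -0.83 log2 units with an SE of 0.23, an unadjusted p of 0.0015 and an adjusted p of 0.236 in limma, so it did not pass the correction over all probes. Groups of 3 eyes and the group of 11 were given no formal test for single outlying eyes. With each eye left out in turn, the female difference stayed between -0.83 and -0.6 (limma, adjusted p from 0.000797 to 0.00992).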

How the results depend on the processing

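Cdh1 in the female comparison kept its direction in 38 of 38 alternative settings and passed the threshold in 34, with log2 differences from -0.83 to -0.5. It did not pass with the series table (-0.5, adjusted p = 0.111), with slide as a block (-0.8, adjusted p = 0.363) or with the methods' t-test under either rule (adjusted p = 0.165), and was not tested where WT females had to average above 500. Krt8 passed in 11 of 38, from 0.64 to 1.49. The number of tested genes called in the female comparison was 2, and 1 with the 75th percentile, with normexp and quantile normalization, with no filter, with array 1 or array 2 alone, with the 2 groups alone, with no trend, with the median of a gene's probes, with slide as a random block (Cdh1 -0.75, adjusted p = 0.0139) and without Ftx-/- eyes 1, 4 and 5. The last 2 settings were chosen after seeing the data. It was 0 with the series table, with the WT female minimum of 500 (2 genes tested), with slide as a block and with the methods' t-test after adjustment. It was 4 with the methods' t-test by fold and unadjusted p, a rule that called 22.3% of all probes, and 1 to 2 when each eye was left out. By fold and unadjusted p, the counts were 1 (Cdh1) for the difference between the sexes, 2 (Cdh1 and Epcam) between WT sexes and 3 (with Krt18) between knockout sexes, where 9.8%, 10.2% and 11% of all probes were called. With the methods' t-test they were 0 in males after adjustment and 1 (Krt18) by fold and unadjusted p (5.99% of all probes), and between knockout sexes 2 (Cdh1 and Epcam) after adjustment (6.29%) and 4 by fold and unadjusted p (14.5%). Between WT sexes, leaving out each eye gave 0 to 1, the 1 being Epcam without WT female eye 4. Causes were not tested.

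The replicate numbers paired no eyes. With the replicate number as a block the female count was 3 (Cdh1, Krt8 and Krt18), while the correlations of same-numbered deviations were -0.34, 0.16 and -0.3 in females and -0.02, -0.07 and 0.03 in males. Of 1326 single values, 1289 kept their side of the threshold, 31 lost and 6 gained a call, and no called value reversed. Of the 1289, 92 changed sign without being called in either setting. Over all probes, calls in the female comparison numbered 9371, against 3655 with the series table, 53 with slide as a block, 4398 with slide as a random block, 4946 with the adjusted t-test, 4127 without WT female eye 1 and 5367 without WT female eye 2. Signal over background limits Krt14, Krt15, Krt19 and the second Trp63 probe, which were not well above background in many eyes.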
